A study of Mus musculus with 8 samples.

Results

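Matrix-producing cancer-associated fibroblasts (CAFs) that express the chemokine gene Cxcl14, the cartilage intermediate layer protein gene Cilp or the leucine-rich repeat gene Lrrc15 were examined in large B16F10 melanomas. Droplet single-cell RNA-seq counts of unique molecular identifiers (UMIs, each standing for 1 captured RNA molecule) from 8 tumours were used. Fibroblast barcodes were those with 200 to 5000 genes, at most 7.5% mitochondrial UMIs, at least 10 UMIs of Col1a1, Col1a2, Col3a1 and Dcn together, less than 0.3% of UMIs from the pigment genes Mlana, Pmel, Dct, Tyr and Tyrp1, and fewer than 3 UMIs of the mural genes Rgs5, Kcnj8 and Notch3. A fibroblast barcode was selected when Mmp13, Cxcl14, Cilp and Lrrc15 together gave at least 3 UMIs and at least as many as the adventitial fibroblast genes Pi16, Clec3b and Ptx3. The members were thus chosen by measured UMIs of these genes, whose values describe the choice and support nothing else. The rule found 115 barcodes among 561 fibroblast barcodes, out of 28411 barcodes within the limits and 41925 deposited. Of the remaining fibroblast barcodes, 139 were adventitial-type, with more adventitial than selecting UMIs, and 307 were of neither kind.

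The study asked what the transcription factor ATF4 does in the host of a tumour whose own cells keep the gene. B16F10 cells, a pigmented mouse melanoma line of C57BL/6 origin with intact Atf4, were injected under the skin, and whole tumours of about 300 mm3 were dissociated without a sort. All hosts were C57BL/6 mice of 12 weeks, per the labels, carrying the tamoxifen-inducible Rosa26::CreERT2 recombinase, which is active in all host cell types, and all received tamoxifen by gavage on 5 consecutive days. The 4 Atf4 WT/WT hosts (labelled Atf4wt/wt; 2 female, 2 male) had no loxP sites in Atf4. In the 4 Atf4 Δ/Δ hosts (labelled Atf4D/D; 1 female, 3 male) the recombinase acted on the floxed coding exons, a deletion that the paper calls efficient but not complete. One tumour was 1 library.

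CAFs lay down and remodel the collagen-rich matrix of a tumour and are drawn from several fibroblast states. Fibroblasts of the adventitia around vessels carry Pi16 and complement genes, whereas myofibroblast-like CAFs carry the contractile gene Acta2 and matrix genes such as Postn and Tnc, and LRRC15 marks such cells in several tumour types. ATF4 is the main transcription factor of the integrated stress response and switches on genes for amino acid synthesis, amino acid transport and tRNA charging, all of which collagen production draws on.

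The selected barcodes were unevenly spread over the tumours. WT/WT tumours 1 to 4 held 13, 6, 11 and 10 of them, and Δ/Δ tumours 1 to 4 held 21, 21, 3 and 30. The third Δ/Δ tumour stood apart, with 9 fibroblast barcodes in all and 0 adventitial-type ones. The selected barcodes had a median of 5007 UMIs and 2032 genes, and the UMIs summed over them ranged from 29171 to 69645 in WT/WT tumours and from 13480 to 173083 in Δ/Δ tumours. None of the 115 shared a barcode sequence with another library, although 199 of 41725 sequences occurred in more than 1 library. Tests of genes between genotypes used the 6 tumours with at least 10 selected barcodes, which left out WT/WT 2 and Δ/Δ 3. Tests of shares used all 8 tumours. Median UMIs per selected barcode lay between 3794 and 5516 in the 8 tumours, a narrower range than that of the barcode numbers.

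The selecting genes were not all carried together. Of the 115 barcodes, 52 had UMIs of 1 of the 4 genes, 54 had 2, 9 had 3 and 0 had all 4. Cilp was the leading gene in 43, Cxcl14 in 40, Lrrc15 in 25 and Mmp13 in 3, with 4 ties. Cxcl14 and Cilp were found together in 33 barcodes, Cilp and Lrrc15 in 27, and Cxcl14 and Lrrc15 in 18. The summed selecting UMIs had a median of 7 and a highest value of 108. At the threshold, 48 fibroblast barcodes had 2 of these UMIs and 25 had 3, of which 22 became members.

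Cilp, which encodes a matrix glycoprotein that binds TGF-beta, was detected in 70 of the 115 barcodes with 436 UMIs. Its level per tumour, in CPM (counts per 1000000 UMIs of the summed selected barcodes), was 531, 857, 1278 and 454 in WT/WT tumours 1 to 4 and 1079, 1013, 371 and 370 in Δ/Δ tumours 1 to 4. Every tumour thus held Cilp, and the genotypes overlapped.

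Cxcl14, a chemokine made by fibroblasts and epithelia, was detected in 60 barcodes with 730 UMIs, of which the 5 highest barcodes held 44.0%. Its levels were 632, 960, 0 and 560 CPM in WT/WT tumours and 770, 1121, 8976 and 1878 CPM in Δ/Δ tumours 1 to 4. WT/WT 3 had no Cxcl14 UMI in 11 selected barcodes. The highest value came from the 3 barcodes of Δ/Δ 3, of which 1 held 102 of the 121 UMIs.

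Lrrc15, a membrane protein of activated fibroblasts, was the most thinly counted of the 3 widely carried genes, with 149 UMIs in 54 barcodes and at most 7 in any of them. Levels of Lrrc15 were 302, 240, 284 and 534 CPM in WT/WT and 203, 216, 148 and 231 CPM in Δ/Δ tumours. All 8 tumours held Lrrc15, and the highest value was that of WT/WT 4.

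Mmp13, a collagenase that cleaves fibrillar collagen, was absent from 112 of the 115 barcodes. Its 82 UMIs came from 3 barcodes, of which 2 lay in WT/WT 1, with 15 and 57 UMIs, and 1 in Δ/Δ 4, with 10. Each of the 3 had 1 UMI of Cilp and none of Cxcl14 or Lrrc15. The name of this class was therefore taken here from Cxcl14, Cilp and Lrrc15, since Mmp13 was detected in 3 barcodes. The same 4 genes were nearly absent from 20135 melanoma barcodes of these libraries, where free RNA would also appear: a UMI was found in 0.0944% for Mmp13, 0.0844% for Cxcl14, 0.0397% for Cilp and 0.144% for Lrrc15, at a median of 9916 UMIs per barcode. In fibroblast barcodes of neither kind, 24.4% had a UMI of Lrrc15, 6.51% of Cxcl14 and 5.86% of Cilp.

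**Figure D1:**
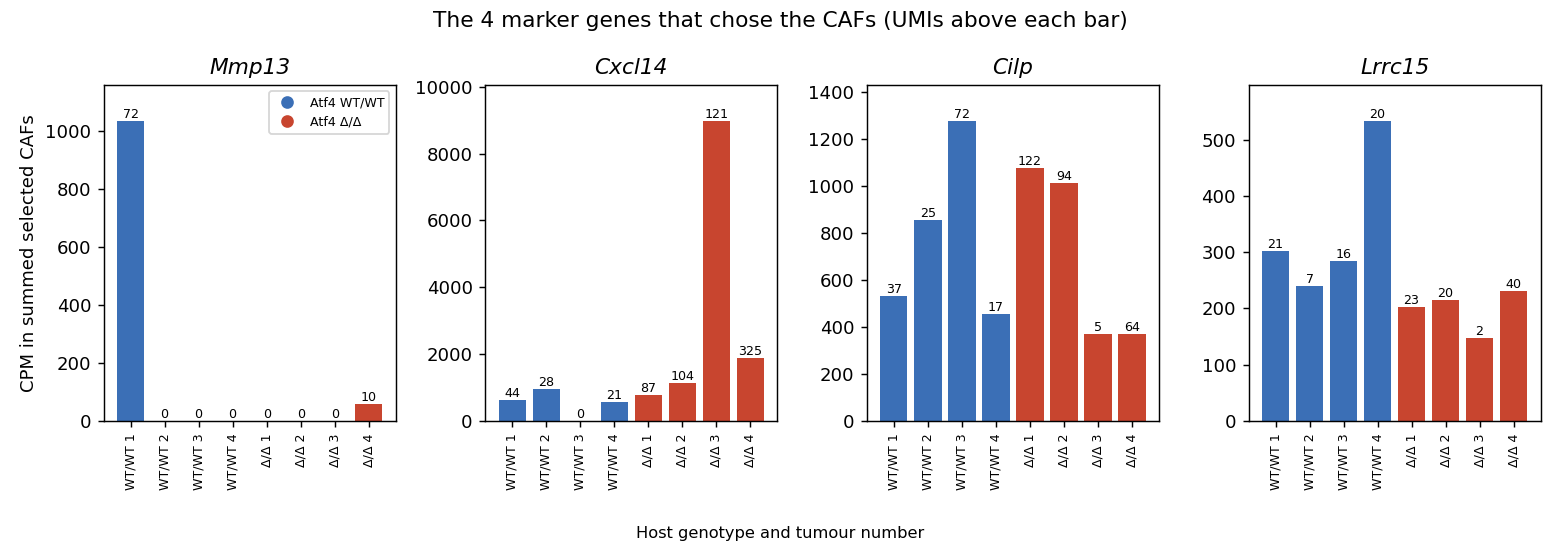
Level of Mmp13, Cxcl14, Cilp and Lrrc15 in the summed selected CAFs of each tumour, in CPM, with the UMIs counted above each bar; blue bars are Atf4 WT/WT hosts and red bars Atf4 Δ/Δ hosts. Lrrc15 and Cilp were present in all 8 tumours, Cxcl14 was at 0 in WT/WT 3 and reached 8976 CPM in the 3 barcodes of Δ/Δ 3, and Mmp13 was found in WT/WT 1 and Δ/Δ 4 only.

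Promoter stretches of 2 of the 4 selecting genes carried the letters bound by AP-1, the Fos and Jun dimer, and are shown because Fos and Jun mRNA were both higher in these CAFs than in the other fibroblasts as a whole, as given further on. Neither was higher in every tumour against the adventitial-type barcodes, where 0 of 8 immediate early genes were higher and 1, Egr1, lower. The motif TGANTCA was searched on both strands of 300 bases around RefSeq starts (GRCm38.p6) and occurred in 7.81% of 32851 promoters. It was present in Mmp13 and Lrrc15 and absent from the windows of Cxcl14 and Cilp, and it occurred in 1 of 16 promoters found for the 20 genes highest against the other fibroblasts (6.25%). The Mmp13 stretch lies at chr9:7272468-7272497 (plus strand), with the match 35 bases before the start, and the Lrrc15 stretch at chr16:30283289-30283318 (minus strand), with the match 53 bases before the start. Capitals mark the match, which is a description of the letters and not evidence of binding.
Mmp13: ccccaaagtggTGACTCAtcactatcatgc
Lrrc15: gccccgtgcggTGACTCAcgaggggctgtt

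The selected barcodes carried the genes that define fibroblasts. All 10 of the fibroblast markers listed were found in at least 10% of them: Fn1 in 98.3%, Col5a1 in 95.7%, the PDGF receptor gene Pdgfra in 53.0% and Fap in 20%. Most genes of other cells were at or near 0. Myh11 and Abcc9 of mural cells, Cdh5, Kdr and Emcn of endothelium, Ptprc, C1qb and Adgre1 of macrophages, Cd3e, Cd3d, Nkg7 and Gzmb of lymphocytes, Krt5, Krt14 and Epcam of epithelium and Acan, Col2a1, Ibsp, Bglap and Sp7 of cartilage and bone had no UMI in any of the 115. The mural list summed to 88.9 CPM, against 62.4 CPM in the other fibroblasts, 7.06 CPM in the adventitial-type barcodes and 90.2 CPM in those of neither kind. It was led by Cspg4 with 35 UMIs in 19.1% of the selected barcodes, and Rgs5 was at 0 by a rule that limited it. S100b of the Schwann cell list was found in 11.3%. The adventitial list summed to 557 CPM, against 3580 CPM in the adventitial-type barcodes. Endothelial and macrophage lists each summed to 25.6 CPM. The cartilage and bone list summed to 76.9 CPM, led by Sox9 with 37 UMIs in 30 barcodes. Melanoma genes summed to 602 CPM, led by Dct with 103 UMIs and ranging from 478 to 830 CPM between tumours, against 15701 CPM in melanoma barcodes. Their part in the results was not tested.

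Genes of the collagen matrix led the lists examined in these CAFs. One UMI stands for 1 molecule read at its 3′ end, so that CPM needs no scaling by gene length. Over the 6 tumours, Col1a1 stood at 13364 ± 3028 CPM (SD), Col3a1 at 12769 CPM and Col1a2 at 12084 CPM, all of which the rule had used. Among genes outside the rule, Sparc, a collagen-binding matricellular protein, reached 11812 CPM and the fibronectin gene Fn1 3612 CPM. Of the genes for collagen folding and crosslinking, the chaperone gene Serpinh1 was the highest and the most even, at 2518 ± 99.6 CPM, followed by lysyl oxidase Lox at 1607 CPM and the prolyl hydroxylase subunit P4hb at 1050 CPM. The protease inhibitor gene Timp1 stood at 4555 CPM, Timp3 at 695 CPM and the membrane collagenase Mmp14 at 499 CPM. The proteoglycan genes Bgn, Aspn and Lum stood at 4452, 381 and 307 CPM.

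Genes of signalling and stress were examined next. Ccl2 and Cxcl1, which recruit monocytes and neutrophils, stood at 1433 and 767 CPM, and Ccl7 at 459 CPM. The activin gene Inhba and Ltbp2 of the TGF-beta list stood at 501 and 270 CPM. Thbs1, which encodes an inhibitor of angiogenesis, reached 892 CPM, Angptl4 270 CPM and Vegfa 200 CPM. The PDGF receptor genes Pdgfrb and Pdgfra stood at 170 and 154 CPM. Of the stress genes, the ER chaperones Hsp90b1 and Hspa5 stood at 1467 and 1328 CPM and the ATF4 targets Nupr1, Cebpb and Eif4ebp1 at 330, 304 and 229 CPM. Glycolytic Gapdh, Pkm and Ldha stood at 2119, 1232 and 1184 CPM, immediate early Jun and Egr1 at 981 and 850 CPM, interferon-stimulated Ifitm3 and Bst2 at 1788 and 299 CPM, and the MHC class I genes B2m and H2-K1 at 554 and 482 CPM. Complement genes Serping1, C3 and C1s1 stood at 655, 464 and 155 CPM.

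Against the other fibroblast barcodes of the same tumours, the selected CAFs had more of 7 of 14 collagen chains that the rule had not used and less of 6 of 16 hypoxia and glycolysis genes in every tumour. Single genes with large differences were C1qtnf3 and Igfbp5, which were higher, and Saa3 and Serpinb2, which were lower. Because selecting genes and other genes were read from the same barcodes, these values are a description without a test. Of 1715 genes of at least 100 CPM in either class, 104 (6.06%) were higher in the selected CAFs in every one of the 6 tumours and 90 (5.25%) were lower, and the median ratio over all genes was 1.03.

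C1qtnf3, which encodes a secreted C1q- and TNF-related protein, differed by the largest ratio. It stood at 144, 248 and 187 CPM in WT/WT tumours 1, 3 and 4 and at 106, 183 and 11.6 CPM in Δ/Δ tumours 1, 2 and 4, against 0 to 29.8 CPM in the other fibroblasts. The ratio of means was 19.1. C1qtnf3 was nevertheless a gene of a minority, with 69 UMIs in 25 of the 115 barcodes.

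Several genes of the extracellular space shared the direction. Of the genes for IGF-binding proteins, 3 were higher in every tumour: Igfbp5 by a ratio of 3.26, Igfbp4 by 2.89 and Igfbp7 by 2.05, the last with 2222 ± 645 CPM against 1082 ± 222 CPM in the other fibroblasts. Genes of elastic and short-chain matrix followed, with a ratio of 3.03 for the microfibril gene Mfap4, 2.70 for the network collagen Col8a1, 2.21 for elastin (Eln) and 2.04 for the latent TGF-beta-binding gene Ltbp2. Sparcl1, Srpx2, Olfml3 and the prolyl hydroxylase P4ha3 had ratios of 2.65, 2.11, 2.07 and 2.16. Igfbp3, in contrast, was lower in the selected CAFs, at 57.3 ± 24.6 CPM against 169 ± 91.9 CPM.

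Of membrane and intracellular genes, the 20 largest ratios included Fhl2 at 2.66, Iqgap2 at 2.61, the phosphate transporter Slc20a1 at 2.59, the mesenchymal cadherin Cdh11 at 2.32, the semaphorin and VEGF co-receptor Nrp1 at 2.29 and cytoglobin Cygb at 2.11. Acta2, smooth muscle actin, stood at 790, 515 and 1708 CPM in WT/WT tumours 1, 3 and 4 and at 840, 119 and 393 CPM in Δ/Δ tumours 1, 2 and 4. It was higher than in the other fibroblasts of the same tumour in 6 of 6 tumours, with a ratio of 2.40, although it ranged from 119 to 1708 CPM between tumours and was found in 53 of the 115 barcodes.

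The serum amyloid gene Saa3, an acute-phase gene, had the smallest ratio. It was at 0 CPM in WT/WT 1 and 3, at 454 CPM in WT/WT 4 and at 663, 506 and 919 CPM in Δ/Δ tumours 1, 2 and 4, whereas the other fibroblasts held 2153 to 8642 CPM in these 6 tumours. The 2 ranges did not meet, and the ratio was 0.0967. Serpinb2, a plasminogen activator inhibitor, stood at 177 ± 168 CPM against 1025 ± 448 CPM, and the chemerin gene Rarres2 at 573 ± 345 CPM against 2188 ± 613 CPM. Lower too were the B-cell chemokine Cxcl13 (ratio 0.151), the interferon regulator Irf7 (0.212), the EGF family ligand Ereg (0.243), the placental growth factor Pgf (0.290), Efemp1 (0.338) and the Notch effector Rbpj (0.389).

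**Figure D2:**
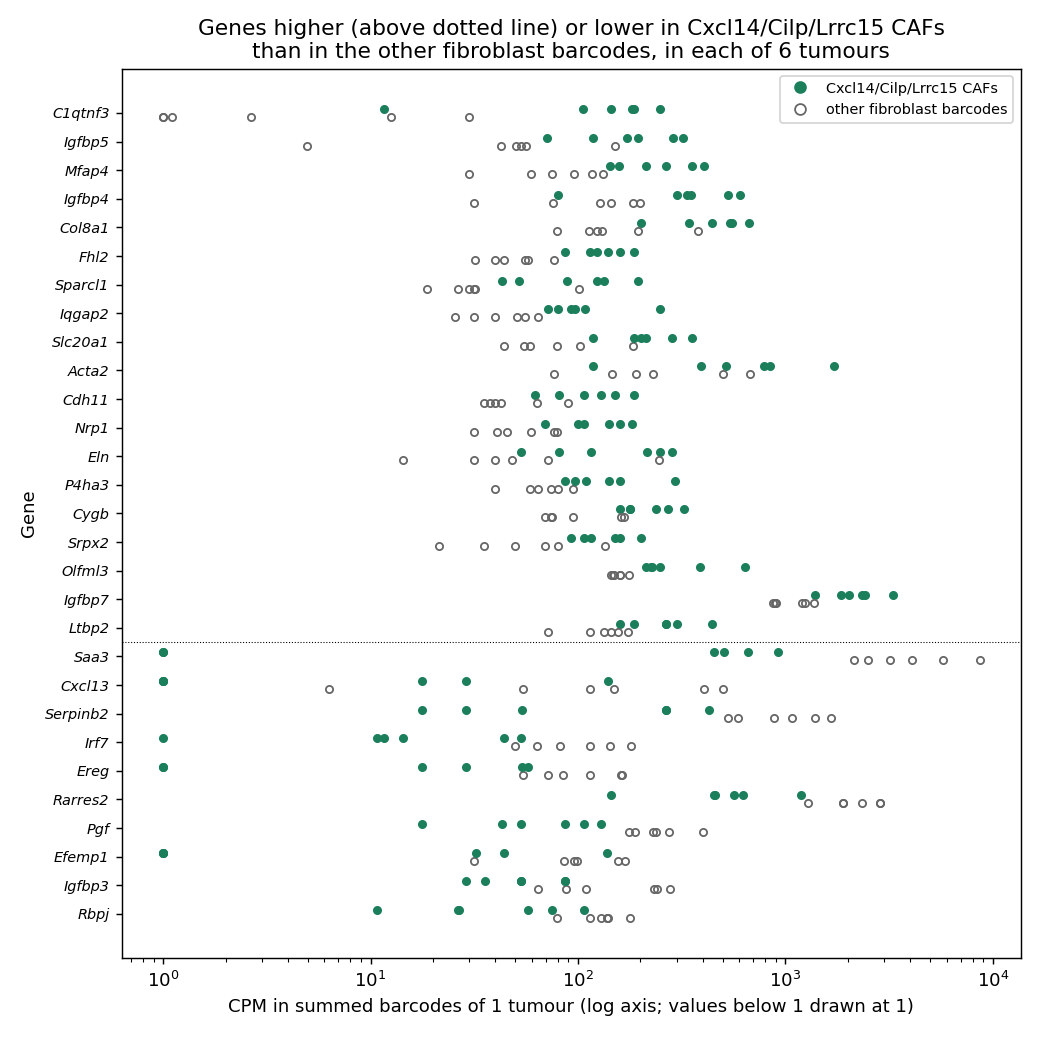
CPM of the genes with the largest and smallest ratios in the summed Cxcl14/Cilp/Lrrc15 CAFs (filled points) and in the other fibroblast barcodes (open points) of each of 6 tumours, on a log axis. The genes above the dotted line were higher in the selected CAFs in every tumour, with ratios from 19.1 for C1qtnf3 to 2.04 for Ltbp2, and the 10 below it were lower, from 0.0967 for Saa3 to 0.389 for Rbpj.

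By gene list, collagen chains were counted first, without Col1a1, Col1a2 and Col3a1, which the rule had used. Of the remaining 14 abundant chains, 7 were higher in every tumour (Col5a1, Col5a2, Col6a1, Col6a2, Col6a3, Col8a1 and Col12a1) and 0 lower, with a median ratio of 1.37, against the background of 6.06% of genes higher. Col6a1, a chain of the beaded-filament collagen VI, stood at 1518 ± 500 CPM against 896 ± 314 CPM. Of 19 matricellular and elastic fibre genes, 5 were higher: Postn at 2697 ± 485 CPM against 1538 ± 214 CPM, Tnc, which was at 2833 ± 761 CPM, and Ctgf, Eln and Mfap4. Of 5 proteoglycan genes, Bgn and Aspn were higher and Ogn lower. Of 5 contractile genes 2 (Acta2 and Cnn2), of 3 PDGF genes 1 (Pdgfrb) and of 8 immediate early genes 2 (Fos and Jun) were higher as well. Against the barcodes of neither kind alone, 0 of the 5 contractile and 0 of the 3 PDGF genes were higher in every tumour. Of 16 hypoxia and glycolysis genes, 6 were lower (Gapdh, Eno1, Pkm, Ero1l, Pgf and Fam162a) and 0 higher, with a median ratio of 0.666, against 5.25% of all genes lower. Of 18 genes of collagen processing and crosslinking, 2 were higher and 0 lower. Among ATF4 targets, none of the 2 abundant amino acid genes and none of the 4 abundant tRNA synthetases moved one way in every tumour, and of 5 abundant stress factors Cebpb and Eif4ebp1 were lower.

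The lists of CAF types that the study took from the literature were counted against each kind of fibroblast barcode. Of 12 abundant genes of the matrix CAF (mCAF) list, 1, Mfap4, was higher than in the other fibroblasts in every tumour, with a median ratio of 0.915. Against the adventitial-type barcodes 0 of 12 were higher and 5 lower, and against those of neither kind 3 of 11 (Smoc2, Mfap4 and Igf1) were higher and 1 lower, with a median ratio of 1.09. Mfap5, the most abundant gene of that list, stood at 2157 CPM. Of 10 abundant genes of the vascular CAF (vCAF) list, 2 (Sparcl1 and Pdgfrb) were higher than in the other fibroblasts and 0 lower, with a median ratio of 1.29. Against the adventitial-type barcodes 3 of 10 were higher and 1 lower, and against those of neither kind 0 of 10 were higher and 1 lower. Over all genes, the shares higher and lower in every tumour were 6.06% and 5.25% against the other fibroblasts, 8.44% and 9.99% against the adventitial-type barcodes and 6.44% and 6.73% against those of neither kind.

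A larger share of genes had 1 direction in every tumour against the adventitial-type barcodes than against the other fibroblasts. Since the adventitial-type barcodes were set apart by the opposite condition on the genes of the rule, this is partly built in by the choice. Against these 139 barcodes, 152 of 1801 genes (8.44%) were higher in the selected CAFs in every tumour and 180 (9.99%) lower. Mgp, a matrix Gla protein that inhibits calcification, stood at 3015, 532 and 240 CPM in WT/WT tumours 1, 3 and 4 and at 1230, 2263 and 1300 CPM in Δ/Δ tumours 1, 2 and 4, whereas the adventitial-type barcodes held 0 to 21.1 CPM. Mgp was found in 59 of the 115 barcodes. Osteopontin (Spp1) stood at 1820 ± 1220 CPM against 33.0 ± 47.8 CPM and was found in 57 barcodes, but WT/WT 3 held 35.5 CPM of it. Thbs4, Tnc and Col15a1 were higher by ratios of 19.97, 7.03 and 5.01, and contractile genes were higher in 5 of 5 cases, with Acta2 at a ratio of 4.46 and Tagln at 5.54. Hypoxia and glycolysis genes did not separate these 2 classes, with 0 of 15 higher or lower in every tumour and a median ratio of 1.01.

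Complement and chemokine genes were higher in the adventitial-type barcodes. Complement genes were lower in the selected CAFs in 6 of 6 cases (C1s1, C1ra, C3, C4b, Serping1 and Cd55), with C3 at 464 ± 319 CPM against 1865 ± 744 CPM. Of 11 chemokine and cytokine genes, 8 were lower (Cxcl12, Cxcl1, Cxcl5, Ccl2, Ccl7, Ccl8, Ccl11 and Il6), with Cxcl12, which guides leukocytes through CXCR4, at 324 ± 228 CPM against 1058 ± 319 CPM. Saa3 stood at 424 ± 366 CPM against 9409 CPM, and Sema3c and Lbp were lower by ratios of 0.101 and 0.148.

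Against the 307 fibroblast barcodes of neither kind, the hypoxia and glycolysis list had the most genes lower in every tumour. Of 1709 genes, 110 (6.44%) were higher in the selected CAFs in every tumour and 115 (6.73%) lower, and the lower ones included 10 of 16 hypoxia and glycolysis genes: Gapdh, Pgk1, Eno1, Pkm, Ndrg1, Ero1l, Vegfa, Pgf, Fam162a and Mif. Ndrg1 stood at 158, 71.0 and 267 CPM in WT/WT tumours 1, 3 and 4 and at 124, 75.4 and 219.5 CPM in Δ/Δ tumours 1, 2 and 4, and the barcodes of neither kind held 290.5 to 699 CPM without overlap. The oxidative folding gene Ero1l stood at 199 ± 72.8 CPM against 678 ± 254 CPM, and Vegfa at 200 ± 127 CPM against 481 ± 101 CPM. At least 3 UMIs of Pgf, Ndrg1 and Ero1l together were found in 27.8% of the selected barcodes, 27.3% of the adventitial-type ones and 54.4% of those of neither kind. Higher in the selected CAFs were the growth factor Igf1, at 134 ± 82.4 CPM against 23.8 ± 27.3 CPM, as well as Smoc2, which like Igf1 belongs to the mCAF list, Nfib, Spon1 and the protease Adamts1 at ratios of 3.75, 2.73, 2.50 and 2.15. Of 8 immediate early genes 4 (Fos, Jun, Ier2 and Dusp1) and of 4 proteoglycan genes 2 (Bgn and Aspn) were higher in every tumour, with Fos at 1014 ± 300.2 CPM against 592 ± 143 CPM.

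The selected barcodes were themselves mixed, and are described here by their leading gene, which is a gene of the rule. Barcodes led by Cxcl14 held 1231 CPM of C3, 1466 CPM of Serping1, 1357 CPM of Saa3 and 943 CPM of the stromelysin Mmp3. Those led by Cilp held 351, 552, 80 and 206 CPM of the same genes, and those led by Lrrc15 158, 230.5, 133 and 24.3 CPM. C3, Serping1, Saa3 and Mmp3 were thus highest in the Cxcl14-led barcodes, although Saa3 was found in 18 of the 115 barcodes and 73.3% of its UMIs in 5 of them, with 72 in 1. The vascular basement membrane genes Col4a1 and Col4a2 were also highest there, with 1363 and 891 CPM in Cxcl14-led, 688 and 351 CPM in Cilp-led and 273 and 164 CPM in Lrrc15-led barcodes. Barcodes led by Lrrc15 held more P4ha1, a prolyl hydroxylase of collagen, at 528 CPM against 276 CPM in Cilp-led and 132 CPM in Cxcl14-led ones, and more of the neutrophil chemokine Cxcl5, at 534 CPM against 18.7 and 196 CPM. These are pooled sums of 40, 43 and 25 barcodes drawn unequally from the tumours and genotypes. Differences by leading gene therefore cannot be told apart from differences between tumours or genotypes. WT/WT 3 gave 0 Cxcl14-led and 9 Cilp-led barcodes, Δ/Δ 4 gave 14 and 8, and Δ/Δ 3 gave 3 and 0.

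The share of Cxcl14/Cilp/Lrrc15 CAFs in a tumour was compared between hosts first. Among barcodes within the limits it was 0.233, 0.195, 0.406 and 0.294% in WT/WT tumours 1 to 4 and 0.713, 0.589, 0.0809 and 0.877% in Δ/Δ tumours 1 to 4. Δ/Δ tumours 1, 2 and 4 lay above all WT/WT tumours, and Δ/Δ 3 lay below them. The means were 0.282 ± 0.0921% and 0.565 ± 0.344% (SD, n = 4 each). The difference did not pass a two-sided exact permutation test over 70 assignments (p = 0.171, adjusted p over the 2 shares = 0.343, smallest possible p 0.0286). The difference was 0.444 percentage points without Δ/Δ 3, the highest of the values with 1 tumour left out, of which the lowest was 0.179. All fibroblast barcodes moved in the same way, at 0.897, 0.846, 1.99 and 1.47% of barcodes in WT/WT and 3.50, 2.19, 0.243 and 5.58% in Δ/Δ tumours.

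Among fibroblast barcodes, the selected CAFs took 26.0, 23.1, 20.4 and 20% in WT/WT and 20.4, 26.9, 33.3 and 15.7% in Δ/Δ tumours. The groups overlapped, with means of 22.4 ± 2.79% and 24.1 ± 7.69% (exact permutation p = 0.714, n = 4 each). When barcodes were thinned to 3000 UMIs, the difference was -0.856 percentage points. This left out 115 shallower fibroblast barcodes, 50 in WT/WT and 65 in Δ/Δ tumours, and the part of their loss in the change of sign was not tested.

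**Figure D3:**
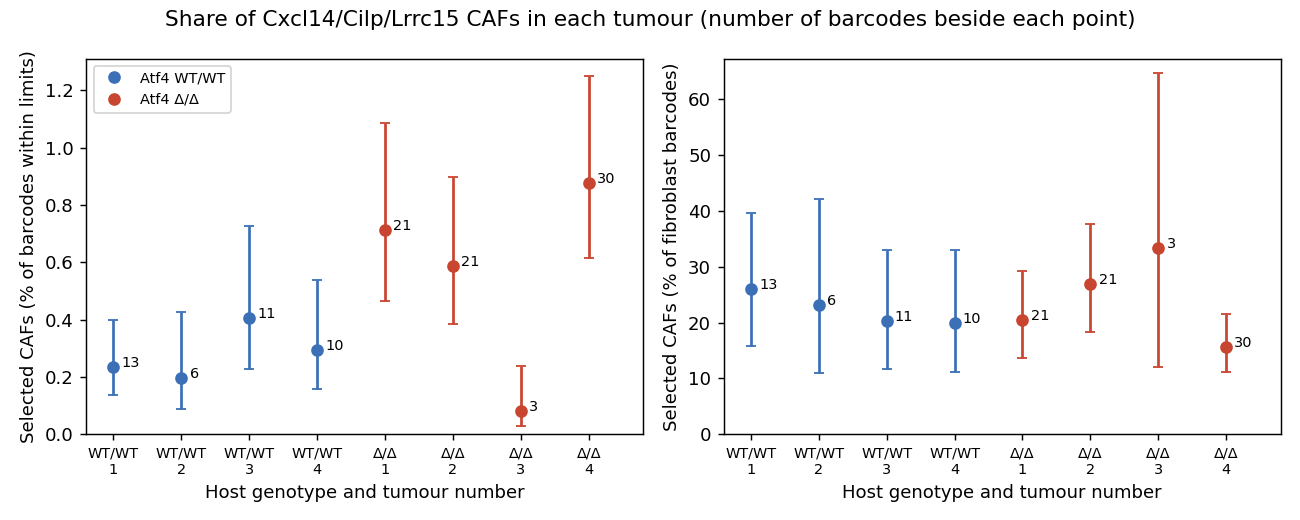
Share of Cxcl14/Cilp/Lrrc15 CAFs among all barcodes within the limits (left) and among fibroblast barcodes (right) in each tumour, in percent, with Wilson 95% intervals that cover counting error only and the number of selected barcodes beside each point. Of all barcodes, Δ/Δ tumours 1, 2 and 4 reached 0.589 to 0.877% and Δ/Δ 3 0.0809%, whereas of fibroblast barcodes the genotypes overlapped between 15.7 and 33.3%.

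Atf4 itself, on chromosome 15 (GRCm38, 80255184 to 80257541), was lower in the selected CAFs of every Δ/Δ tumour. Its level was 273, 240, 302 and 427 CPM in WT/WT tumours 1 to 4 and 88.5, 86.2, 148 and 28.9 CPM in Δ/Δ tumours 1 to 4, counted from 59 and 25 UMIs. The genotypes did not overlap, and Atf4 fell by 2.31 ± 0.41 (SE) on the log2 scale in edgeR's quasi-likelihood test of 3 against 3 tumours (Benjamini-Hochberg adjusted p = 0.0445). The same gene stood at 331 ± 57.3 CPM in melanoma barcodes of WT/WT and 351 ± 63.1 CPM in those of Δ/Δ tumours, which carry it in both. In the other fibroblasts Atf4 differed by -1.69 ± 0.32 (adjusted p = 0.127, edgeR), and the test of whether the selected CAFs differed more gave -0.63 ± 0.44 (adjusted p = 0.999).

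**Figure D4:**
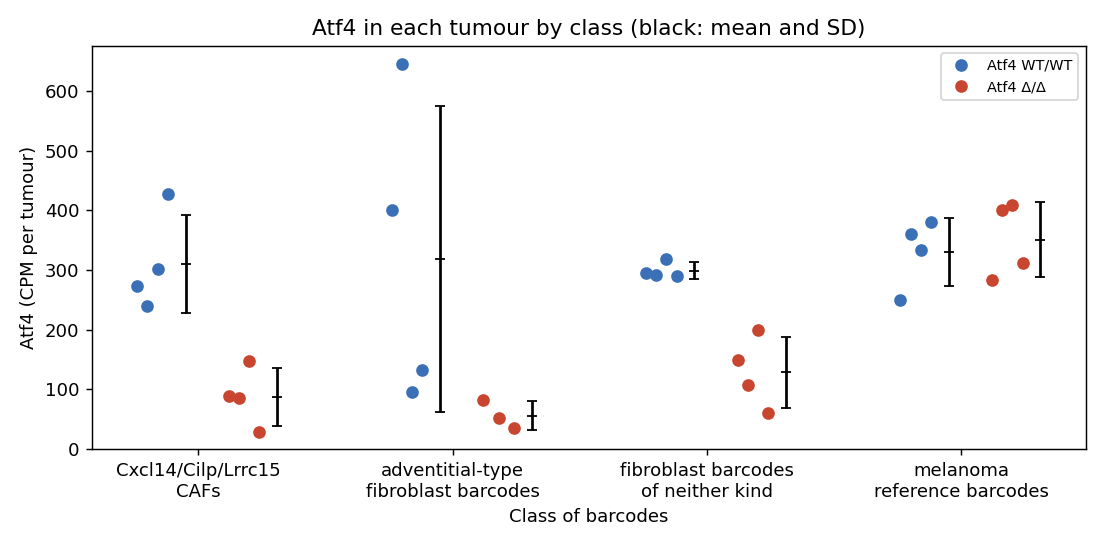
Atf4 in CPM per tumour in the Cxcl14/Cilp/Lrrc15 CAFs, in the other kinds of fibroblast barcode and in melanoma barcodes, with blue points for Atf4 WT/WT hosts, red points for Atf4 Δ/Δ hosts and black bars for mean and SD. In the selected CAFs WT/WT tumours lay between 240 and 427 CPM and Δ/Δ tumours between 28.9 and 148 CPM, whereas the melanoma barcodes of both genotypes overlapped.

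Between genotypes, 5 of 1366 genes tested in the selected CAFs passed an adjusted p of 0.05 (0.366%), 2 of them higher and 3 lower in Δ/Δ hosts, by edgeR's quasi-likelihood test. All 5 had an adjusted p of 0.0445. At an unadjusted p of 0.05, 110 genes (8.05%) passed, 68 higher and 42 lower, and in 207 genes (15.2%) the 3 WT/WT and 3 Δ/Δ levels did not overlap. The balance depended on the scaling: with library totals alone, 110 genes passed as well, 52 higher and 58 lower. DESeq2 called 6 genes. With 1 tumour left out, edgeR called 0 genes without Δ/Δ 1, Δ/Δ 2 or Δ/Δ 4, 3 without WT/WT 4, 6 without WT/WT 1 and 12 without WT/WT 3, and it called 0 with host sex as a covariate. No gene was called with library totals alone as scaling, where these 5 had an adjusted p of 0.0505. In the genotype comparisons that follow, levels of the selected CAFs per tumour are CPM of the tested genes after TMM scaling, unless given as before scaling. They are therefore higher than the CPM above. Levels in melanoma barcodes, in barcodes by leading gene and in the closing sections are unscaled CPM over all genes. The 2 scales cannot be set against each other.

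Sparc was higher in Δ/Δ hosts. It stood at 13578, 11312 and 12509 CPM in WT/WT tumours 1, 3 and 4 and at 19187, 22326 and 17990 CPM in Δ/Δ tumours 1, 2 and 4. Each Δ/Δ value exceeded each WT/WT value, and the log2 change was 0.67 ± 0.11. In the 3 barcodes of Δ/Δ 3, which was not in the fit, Sparc was at 5415 CPM before scaling, below all other tumours. In melanoma barcodes Sparc stood at 405 and 402 CPM before scaling in the 2 genotypes, and in the other fibroblasts it changed by 0.50 without passing the threshold (adjusted p = 0.504, edgeR).

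Gm42418, a long non-coding RNA locus on chromosome 17 (39846958 to 39848788), was lower in the Δ/Δ tumours of the fit. It stood at 5225, 12580 and 5627 CPM in WT/WT and 2394, 1472 and 2467 CPM in Δ/Δ tumours (log2 change -1.88 ± 0.32). Δ/Δ 3, which was not in the fit, went the other way. Its selected barcodes held 13480 UMIs in all, and 1 of them held 160 UMIs of Gm42418, the highest count of any selected barcode. Over the alternatives other than leaving out 1 tumour, the change ran from -2.66 to -0.58. Gm42418 stood at 1382 and 642 CPM before scaling in melanoma barcodes, and in the other fibroblasts it changed by -1.52 (adjusted p = 0.328, edgeR).

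Mki67, a marker of dividing cells, was lower as well. Its levels were 214, 540 and 430 CPM in WT/WT and 59.8, 61.3 and 87.3 CPM in Δ/Δ tumours, a log2 change of -2.38 ± 0.43. The count was thin, with 66 UMIs in 21 barcodes of the 6 tumours. In melanoma barcodes Mki67 stood at 190 and 175 CPM before scaling, and in the other fibroblasts it changed by -0.26 (adjusted p = 0.981, edgeR). Among the selected barcodes Mki67 stood, before scaling, at 11.5 CPM in Cxcl14-led, 93.5 CPM in Cilp-led and 218 CPM in Lrrc15-led ones. The numbers of these barcodes differed between the tumours, and the part of this in the difference was not tested. The difference between the changes in the 2 kinds of fibroblast was -2.17 and did not pass its own test (adjusted p = 0.569, edgeR).

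Of the 3 cell cycle genes tested, 2, Mki67 and Top2a, had an unadjusted p under 0.05, against 8.05% of all genes tested, and the third, Birc5, had a log2 change of -0.97 (adjusted p = 0.613, edgeR). Top2a, a topoisomerase of dividing cells, stood at 253, 282 and 323 CPM against 132, 153 and 55.5 CPM (log2 change -1.40, adjusted p = 0.310, edgeR). Ube2c and Cenpa, which act in mitosis, changed by -1.37 and -1.31 and the histone gene H2afz by -0.84, and the proteasome gene Psmd1 by -1.54, without passing the threshold (adjusted p = 0.194, 0.310, 0.325 and 0.157). None of these 5, which were picked by p, had overlapping genotypes, as was the case for 15.2% of all genes tested. The 10 cell cycle genes summed, before scaling, to 790, 274, 1491 and 1308 CPM in WT/WT tumours 1 to 4 and to 433, 377, 0 and 491 CPM in Δ/Δ tumours 1 to 4, so that WT/WT 2 lay among the Δ/Δ values.

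Serpina3n, an acute-phase protease inhibitor, lay just outside the threshold, with 117, 23.5 and 251 CPM in WT/WT and 515, 1012 and 761 CPM in Δ/Δ tumours (log2 change 2.67 ± 0.50, adjusted p = 0.0520, edgeR). Complement genes shared this direction. C3 stood at 272, 422 and 143 CPM in WT/WT and 634, 1227 and 1134 CPM in Δ/Δ tumours (log2 change 1.77 ± 0.37, adjusted p = 0.110), and all 4 complement genes tested had positive changes, 3 of them (C3, C4b and Serping1) at an unadjusted p under 0.05, with a median of 1.30 against -0.02 over all genes, of which 48.2% had positive changes and 8.05% an unadjusted p under 0.05. The 9 complement genes summed, before scaling, to 1206, 1063, 781 and 961 CPM in WT/WT and 1628, 2823, 964 and 2380 CPM in Δ/Δ tumours. Δ/Δ 3 was again among the WT/WT values. Cxcl14-led barcodes, which had the highest C3 and Serping1 levels, numbered 2 of 13, 0 of 11 and 3 of 10 in WT/WT tumours 1, 3 and 4 and 6 of 21, 9 of 21 and 14 of 30 in Δ/Δ tumours 1, 2 and 4, and their part in the difference was not tested. Prg4 (lubricin) and the actin-severing gene Gsn changed by 2.61 and 1.27 (adjusted p = 0.160 and 0.162).

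No collagen gene was called in either direction. Of the 13 collagen chains tested outside the rule, 10 had positive changes and 3 (Col4a1, Col4a2 and Col6a1) an unadjusted p under 0.05, with a median log2 change of 0.25. Over all genes tested, 48.2% had positive changes and 8.05% an unadjusted p under 0.05. Before scaling, the 20 collagen chains of the list, those of the rule included, summed to 41755, 46587, 42767 and 43630 CPM in WT/WT tumours 1 to 4 and to 55673, 69161, 18398 and 47318 CPM in Δ/Δ tumours 1 to 4. Because the chains of the rule are part of these sums, they are given as levels only, and no order of the genotypes is drawn from them. Δ/Δ 3 was not in the fit. Col4a1, a basement membrane chain, stood at 680, 399 and 860 CPM in WT/WT and 1376, 1947 and 1063 CPM in Δ/Δ tumours (log2 change 1.19 ± 0.31, adjusted p = 0.194, edgeR). Col6a1 changed by 0.63 (adjusted p = 0.519), and in Δ/Δ 3 it was at 223 CPM before scaling, against 960 to 1278 CPM in WT/WT tumours. Col1a2, with which the barcodes had been selected, had levels of 12548, 13448 and 13728 CPM in WT/WT and 17738, 24764 and 16927 CPM in Δ/Δ tumours. Of 18 genes of collagen processing, 10 had positive changes and 1, Lox, an unadjusted p under 0.05 (log2 change 0.55, adjusted p = 0.492). Serpinh1 changed by 0.09 ± 0.13 (adjusted p = 0.907).

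Beyond Sparc, Atf4 and Mki67, no gene of any list was called. The counts that follow stand beside 48.2% of all genes tested with positive changes and 8.05% with an unadjusted p under 0.05, of which 68 genes were higher and 42 lower. With library totals as scaling, 52 genes at that threshold were higher and 58 lower. Of the 17 matricellular and elastic fibre genes tested, 9 had positive changes, and 3, Sparc, Fbln2 and Mfap4, an unadjusted p under 0.05. Of 12 protease genes, 8 had positive changes and 3 (Mmp2, Mmp3 and Ctsk) an unadjusted p under 0.05. Of 9 mCAF genes, 8 had positive changes, and of 6 vCAF genes 6, with 5 and 3 at an unadjusted p under 0.05. The study had used these lists on its own samples, so they are not independent evidence of direction. The 5 contractile genes all had negative changes, with a median of -0.78, and 1, Tpm1, an unadjusted p under 0.05. Acta2 changed by -1.06 ± 0.55 (adjusted p = 0.660, edgeR), with levels that overlapped. Of 14 hypoxia and glycolysis genes 3, and of 11 ER chaperones 1, had positive changes, with 1 unadjusted p under 0.05 in each list (Ldha and Hspa5, both lower).

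**Figure D5:**
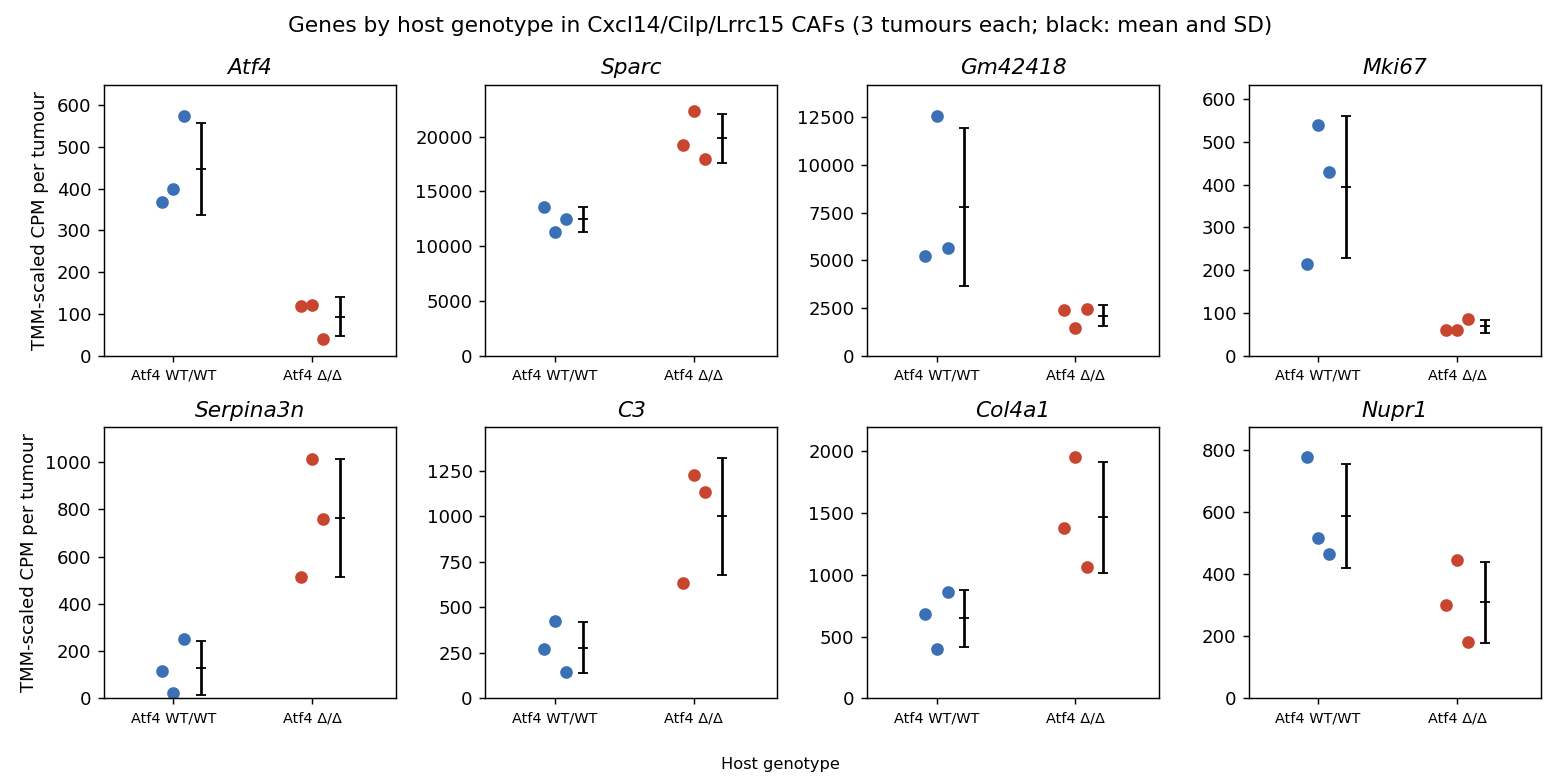
TMM-scaled CPM per tumour of 8 genes in the Cxcl14/Cilp/Lrrc15 CAFs of 3 Atf4 WT/WT (blue) and 3 Atf4 Δ/Δ (red) hosts, with mean and SD in black. The upper 4 genes passed the adjusted threshold and the lower 4 did not. None of the 8, several of which were picked by p, had overlapping genotypes, as was the case for 15.2% of the 1366 genes tested.

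ATF4 targets were mostly too thinly counted to test. Of the 17 amino acid genes, 1, the transporter subunit Slc3a2, reached the filter, at 194, 164 and 251 CPM in WT/WT and 168, 307 and 175 CPM in Δ/Δ tumours (log2 change 0.07 ± 0.37, adjusted p = 0.980, edgeR). Of 17 stress factors 4 and of 13 tRNA synthetases 3 were tested, and none was called. Nupr1, a stress-induced nuclear protein, stood at 777, 516 and 466 CPM in WT/WT and 299, 445 and 182 CPM in Δ/Δ tumours (log2 change -1.01 ± 0.36, adjusted p = 0.492). The asparaginyl-tRNA synthetase Nars changed by -0.86 ± 0.36 (adjusted p = 0.594).

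Summed over each list, before scaling, the tRNA synthetases gave 1235, 1131, 1012 and 1521 CPM in WT/WT tumours 1 to 4 and 858, 840, 1039 and 867 CPM in Δ/Δ tumours 1 to 4, so that Δ/Δ 3 alone reached the WT/WT range. The amino acid genes gave 675, 857, 1100 and 667 CPM and 531, 743, 668 and 480 CPM, with overlap.

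A promoter stretch of Nupr1 is shown because it holds the letters of the CEBP-ATF response element, through which ATF4 acts, and Nupr1 was the ATF4 target with the smallest p here. The motif TGATGNAA, searched on both strands of the same 300-base windows, occurred in 3.97% of 32851 promoters, in 11 of 34 promoters of the ATF4 target lists, in 0 of 18 collagen promoters, in 0 of the 4 selecting genes and in 0 of 16 promoters found for the 20 genes highest against the other fibroblasts. It starts with the same letters as the AP-1 motif but differs from it after them, so that no match is a site of both from the same start. The stretch lies at chr7:126625562-126625591 (GRCm38.p6, minus strand), with the match 110 bases before the start and on the opposite strand. Capitals mark the match.
Nupr1: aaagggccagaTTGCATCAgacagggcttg

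Whether a genotype difference was particular to the Cxcl14/Cilp/Lrrc15 CAFs was tested with the other fibroblasts of the same tumours in 1 model. Of 2888 genes, 0 passed an adjusted p of 0.05 in edgeR's quasi-likelihood test (0%), and 125 had an unadjusted p under 0.05. The smallest p belonged to Nr4a2, an orphan nuclear receptor (adjusted p = 0.569).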

How the data were processed

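The authors deposited 1 filtered matrix of UMI counts per tumour, made with Cell Ranger 3.1.0 per the labels, whose processing notes also name Seurat 3.2.1. Labels and paper differ on the version of the droplet kit, so none is given. The deposited counts are whole numbers for 31053 genes of the mouse build GRCm38 named in the labels, with 0 columns of other samples.

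Barcodes were filtered by the rule above, and no doublet caller was run. Counts were summed per tumour and class with Python 3.11.15, numpy 2.4.6, scipy 1.17.1 and pandas 2.3.3. Totals of deposited UMIs per tumour were 37283598 to 74942137. Genotypes were compared over tumours with at least 10 members, using edgeR 4.0.16 (limma 3.58.1, R 4.3.3): TMM factors, filterByExpr, quasi-likelihood F test and Benjamini-Hochberg adjustment at 0.05. DESeq2 1.42.0 was an alternative. The interaction fit had tumour, class and class by genotype. Scripts were tested on simulated data. Shares were compared by an exact permutation test, with Wilson 95% intervals for single tumours. Contrasts between classes are descriptions, since members were chosen from the same counts, and genes that the rule used are given as levels only. Each replicate is a separate tumour per the labels.

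The members and gene lists were chosen with earlier results of these data known. Genes named are Atf4, the genes of the rule, those called, the 5 of smallest p on each side with at least 100 CPM, the 3 most abundant of each list, and the 20 highest and 10 lowest ratios against the other fibroblasts with 1 direction in every tumour. A few genes that these rules name are not reported here. The remaining names in class contrasts, in subsets by leading gene and in list counts were chosen after their values were seen.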

Additional observations from a re-analysis of the deposited data

Results flagged for a closer look

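In 6 of the 68 groups of 4 tumours examined, 1 tumour lay farther from the others than Dixon's 95% limit for 4 samples, and chance alone flags about 1 group in 20. Of these 6 values, 4 came from Δ/Δ 3, whose sums rest on 3 barcodes. Cxcl14 stood at 8976 CPM there, with 102 of its 121 UMIs in 1 barcode, against 770 to 1878 CPM in the other Δ/Δ tumours. Summed tRNA synthetases stood at 1039 CPM (840 to 867 CPM in the others), summed matrix proteases and inhibitors at 6973 CPM (9365 to 9818 CPM) and summed MHC class I genes at 5045 CPM (1530 to 1751 CPM). In WT/WT 1, summed immediate early genes stood at 7481 CPM, against 4403 to 4594 CPM in the other WT/WT tumours. In WT/WT 2, which gave 6 barcodes, summed mCAF genes stood at 9119 CPM, against 7072 to 7364 CPM.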

How the results depend on the processing

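Atf4 kept its direction in 18 of 18 alternatives and passed the threshold in 7, with adjusted p from 0.000209 to 0.352 (edgeR or DESeq2). It did not pass with sex as a covariate (log2 change -2.35), all 8 tumours (-2.17), library totals as scaling (-2.36), a mitochondrial limit of 15% (-2.21), a melanoma limit of 0.1% (-2.18) or at least 5 marker UMIs (-1.76), and ranged from -2.58 to -1.82 when 1 tumour was left out. The count of called genes (5) became 33 without a filter on low counts, 30 with at least 5 marker UMIs, 18 with a melanoma limit of 0.1%, 3 with at least 5 barcodes per tumour, and 0 with sex, all 8 tumours, library totals or the 15% limit. Leaving out 1 tumour gave 0 to 12 calls: 0 without Δ/Δ 1, 2 or 4, 12 without WT/WT 3, 6 without WT/WT 1 and 3 without WT/WT 4. The causes were not tested. Interaction calls (0) became 7 without a filter, 7 with the melanoma limit of 0.1% and 4 with at least 5 marker UMIs, and 0 to 7 when 1 tumour was left out. These 2 limits, on melanoma genes and on 5 marker UMIs, left 1 WT/WT tumour, assumed to vary like the others. At least 20 barcodes per tumour left 0 WT/WT tumours and could not be fitted. The difference in share of fibroblasts (1.73 points) turned to -1.18 with at least 2 marker UMIs and -0.856 after thinning, and ran from -1.36 to 4.52 when 1 tumour was left out. The share of all barcodes differed by 0.179 to 0.444 points when 1 tumour was left out. All 26 named genes with alternatives kept their direction. All 8 tumours and library totals were chosen after seeing the data.

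No source states that same-numbered tumours were paired. Correlations of deviations were 0.00256 for the tumours numbered 1 and 0.0808 for those numbered 4, which cannot decide whether they were handled together. With the replicate block, 7 genes were called and Atf4 changed by -2.58 (adjusted p = 0.134, edgeR). Depth limits these tests: the 6 sums in the fit came from 10 to 30 barcodes, and 1366 of 31053 genes had enough UMIs to be tested.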
